A study of Homo sapiens with 4 samples.

Results

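Skipped exons of the zinc finger genes with a ZNF symbol were followed in the established human line MDA-LM2, which was selected from MDA-MB-231 breast cancer cells for growth in the lung. Libraries of total RNA came from cells transfected with small interfering RNAs against SNRPB2 (siSNRPB2, 2 libraries) and from cells transfected with control RNAs (siCtrl, 2 libraries). Per the labels, RNA was taken 48 h after transfection, 2 independent siRNAs were used, and knockdown by quantitative PCR was over 95%. SNRPB2 is part of U2, the small nuclear ribonucleoprotein that binds the branch point of introns. The deposited files hold 1 value per event and group, so replicate spread is unknown for every difference below, and SNRPB2 itself was not analysed here. All inclusion levels (ψ, from 0 where the exon is always skipped to 1 where it is always kept) and their intervals are the authors' values.

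An exon was taken when it shares a boundary with an exon of a protein-coding GENCODE release 29 gene named ZNF and a number. It also needed at least 20 informative reads in each file, that is, reads that fit only the isoform with the exon or only the isoform without it. Of the 475 such genes in the annotation, 315 had an event in both files, with 872 exons in all. The read minimum left 401 exons in 192 genes, among 18682 exons of all genes, and 471 ZNF exons fell below it. The 401 exons formed 339 groups of overlapping exons, and exons in 1 group or 1 gene share reads. The siSNRPB2 file holds 93580246 event reads and the siCtrl file 100579230. At the minimum itself, the 10 exons with 20 reads in the shallower file had ψ differences (siSNRPB2 minus siCtrl) from -0.35 to 0.05, and the 11 exons with 19 had differences from -0.16 to 0.64.

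As a check of the line, reads over event exons were high for CD44 (2387 RPM in siSNRPB2 and 2730 RPM in siCtrl) and ITGB1 (1782 and 1907). RPM takes the reads that fit an isoform at a gene's deepest event. It scales them to the sum of such reads over all genes in the file, not to all event reads. Of the mesenchymal and basal markers 7 of 11 had an event, the lowest being SPARC with 5.65 RPM in siSNRPB2 and 5.87 in siCtrl. Of the luminal and epithelial markers 4 of 11 had one. KRT8 was well covered (695 RPM in siSNRPB2 and 748 in siCtrl), whereas GATA3 had 173 reads in siSNRPB2 and 353 in siCtrl, FOXA1 145 and 62, and ESR1 10 and 1. The 3 of 7 blood and endothelial markers with an event summed to 3.87 RPM in siSNRPB2 and 3.04 in siCtrl, with 8 and 51 reads for PTPRC, 30 and 1 for CD3E, and 25 and 4 for LYZ. The part of other cells in the results was not tested.

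Most ZNF genes encode tandem C2H2 zinc fingers that read DNA sequence, usually all within the long last exon. In many of them the preceding short exons encode a KRAB domain, whose A box binds the corepressor TRIM28 (KAP1) and whose B box modulates it. TRIM28 in turn recruits the histone methyltransferase SETDB1 and HP1 proteins, a pathway best known for silencing transposable elements. These genes multiplied by tandem duplication, largely in clusters on chromosome 19, so that exons of neighbouring genes resemble each other. A few genes with a ZNF symbol are of another kind, such as ZNF185, which encodes a LIM domain protein linked to actin, and ZNF207, which encodes the spindle protein BuGZ.

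The exons below are shown because the results turn on them. The first 6 are KRAB A exons, which went in opposite directions in different genes, and the last 3 are other exons, in ZNF618, ZNF207 and ZNF185. They were picked after their values were seen. Each is the coding strand of the exon, 5' to 3', from GENCODE release 29 transcripts (hg38). Capitals mark the bases that encode a match to the A box signature searched for (the start of the box, the conserved stretch near its end, or both), and the last 3 have none.
ZNF470 (chr19:56574394-56574520, plus strand): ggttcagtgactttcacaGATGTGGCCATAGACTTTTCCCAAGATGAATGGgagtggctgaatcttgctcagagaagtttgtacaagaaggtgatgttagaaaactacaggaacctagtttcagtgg
ZNF519 (chr18:14124350-14124476, minus strand): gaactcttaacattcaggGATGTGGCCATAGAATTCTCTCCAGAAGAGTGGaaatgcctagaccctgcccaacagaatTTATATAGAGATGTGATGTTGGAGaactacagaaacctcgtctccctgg
ZNF112 (chr19:44340416-44340542, minus strand): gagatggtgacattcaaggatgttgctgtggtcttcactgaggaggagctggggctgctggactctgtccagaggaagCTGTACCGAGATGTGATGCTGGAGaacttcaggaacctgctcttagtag
ZNF71 (chr19:56613812-56613938, plus strand): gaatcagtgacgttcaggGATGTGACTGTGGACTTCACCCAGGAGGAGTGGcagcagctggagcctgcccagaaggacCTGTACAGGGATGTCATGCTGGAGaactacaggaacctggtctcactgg
ZNF778 (chr16:89223157-89223283, plus strand): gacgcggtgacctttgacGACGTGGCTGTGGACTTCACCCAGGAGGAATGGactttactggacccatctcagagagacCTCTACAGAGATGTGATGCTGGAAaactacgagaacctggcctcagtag
ZNF586 (chr19:57776543-57776669, plus strand): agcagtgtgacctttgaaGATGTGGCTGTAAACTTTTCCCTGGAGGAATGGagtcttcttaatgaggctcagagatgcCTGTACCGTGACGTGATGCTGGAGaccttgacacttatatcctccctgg
ZNF618 (chr9:113998259-113998354, plus strand): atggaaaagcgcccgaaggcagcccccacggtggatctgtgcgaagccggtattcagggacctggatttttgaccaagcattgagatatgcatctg
ZNF207 (chr17:32361468-32361515, plus strand): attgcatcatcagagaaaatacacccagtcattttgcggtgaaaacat
ZNF185 (chrX:152928575-152928661, plus strand): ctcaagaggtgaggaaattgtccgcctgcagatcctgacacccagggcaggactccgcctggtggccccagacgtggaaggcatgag

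Many of these exons share 1 length. Of the 401 ZNF exons, 52 were exactly 127 nt long (13.0%), against 90 of 18281 tested exons of all other genes (0.492%). Of these 52, 47 encode a match to the KRAB A signature, and they come from 47 genes, 38 of the exons lying on chromosome 19. Over all pairs of the 47 exons the median identity was 67.7% (from 50.4% to 100%), and at 46 of the 127 positions at least 90% of them carry the same base. The length of 127 leaves a remainder of 1 when divided by 3, so leaving the exon out does not keep the reading frame. A smaller peak lay at 96 nt, with 21 exons, of which 12 encode a match to the B box signature, and 96 is a multiple of 3.

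**Figure D1:**
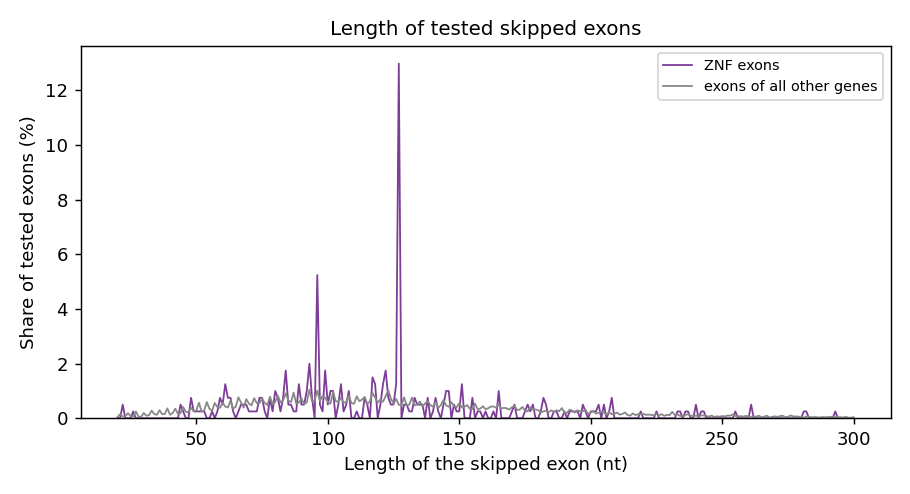
Share of tested skipped exons at each length (nt), in percent, for the 401 ZNF exons and for the 18281 exons of all other genes, from 20 to 300 nt. The ZNF exons peak at 127 nt (13.0%, against 0.492% of exons of other genes) and at 96 nt (5.24%, against 1.01%).

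The comparison asked which of these exons were kept differently when SNRPB2 was depleted. An exon was called when the Bayes factor in the authors' deposited table was at least 10 and ψ differed by at least 0.1. Of the 401 ZNF exons, 41 were called lower in siSNRPB2 and 46 higher (64 genes), so that 21.7% were called, against 14.7% of all tested exons (7.61% lower and 7.13% higher). No test between conditions was possible with 1 value per group. The ZNF exons had fewer informative reads, with a median of 79 in siSNRPB2 and 83 in siCtrl, against 137 and 158 for all tested exons, and wider ψ intervals (median 0.12 in both files, against 0.07 and 0.06).

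The share of calls moved with depth. Among exons with 40 to 80 informative reads over both files, 25.4% of 67 ZNF exons were called, against 14.1% of all exons at that depth. It was 27.3% of 143 against 19.1% at 80 to 160 reads, and 22.7% of 88 against 19.1% at 160 to 320 reads. At 320 to 640 reads 13.1% of 61 ZNF exons were called, against 14.5% of all exons, and above that 7.14% of 42, against 8.62%. The excess over the background was therefore seen only among exons below 320 reads, and the part of read depth in it was not tested.

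Directions were balanced. Inclusion was lower in siSNRPB2 for 168 ZNF exons, higher for 168 and equal for 65, and the median ψ difference was 0, as over all tested exons. The median difference was -0.36 among exons called lower and 0.33 among those called higher. At the extremes, 103 exons reached 0.95 or more in both files and 33 stayed at 0.05 or less in both. Of the 87 calls, 61 had at least 1 read over the skipping junction in either file, 30 of the lower and 31 of the higher ones. The other 26 (29.9%) had none, and their ψ rests on reads in the exon relative to those in its flanks. Over all tested exons, 1088 of the 2754 calls had none. Among exons with such a read, 33.3% of 183 ZNF exons were called, against 18.2% of all tested exons with one.

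**Figure D2:**
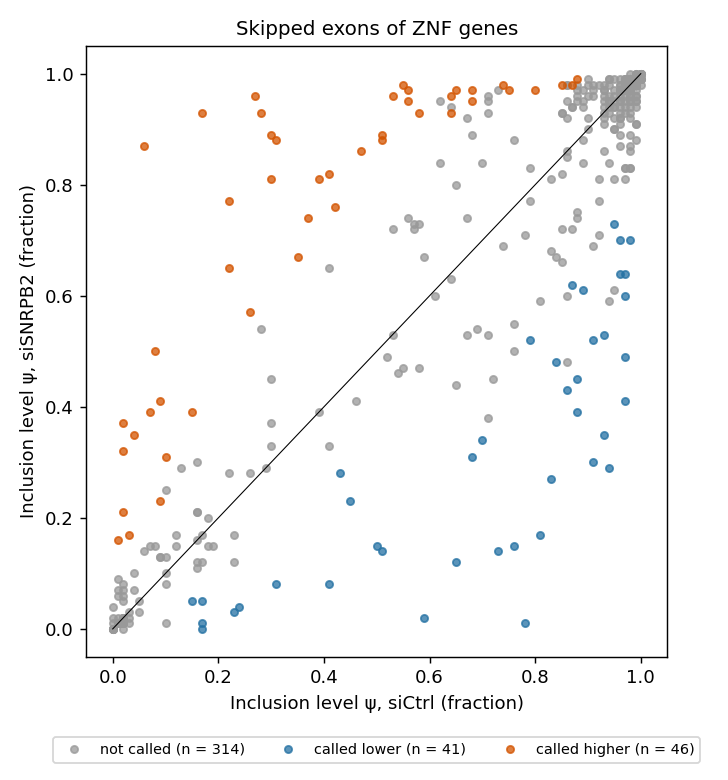
Inclusion level ψ (fraction) of each of the 401 ZNF exons in siSNRPB2 (vertical axis) and siCtrl (horizontal axis), coloured by call; the line marks equal values. The 41 exons called lower lie below the line and the 46 called higher lie above it, and 103 exons lie at 0.95 or more on both axes.

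Among exons called lower with informative reads of 50 or more in each file, the largest difference with skipping reads was in ZNF207, whose product binds the checkpoint protein BUB3 and microtubules. Its coding exon of 48 nt, shown above, had a ψ of 0.39 (interval 0.30 to 0.47) in siSNRPB2 and 0.88 (0.79 to 0.95) in siCtrl. It had 74 reads with and 39 without the exon in siSNRPB2, against 106 with and 5 without it in siCtrl (adjusted p = 2.06e-07, 2-sided exact test of Fisher on these reads, Benjamini-Hochberg over the 18682 exons, here and below). This p treats reads as independent. With reads divided by a noise factor, given further on, the adjusted p was 1 for this and for every other ZNF exon. The lower ψ thus came with more reads over the skipping junction. The exon is a multiple of 3 long.

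The 87-nt coding exon of ZNF185 had a ψ of 0.61 (0.55 to 0.67) in siSNRPB2 and 0.89 (0.83 to 0.94) in siCtrl. With 293 reads with and 43 without the exon in siSNRPB2, against 351 with and 10 without it in siCtrl, it was among the better covered calls (adjusted p = 9.56e-06, exact test). Most of its transcripts still kept the exon, and the share of inclusion-only reads differed by only -0.10. Another exon of ZNF185, of 198 nt, had a ψ of 1 in both files and was among the 4 deepest ZNF exons.

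In ZNF417 a 194-nt exon of the 5' untranslated region had a ψ of 0.14 in siSNRPB2 and 0.51 in siCtrl. Its reads were 23 with and 69 without the exon in siSNRPB2, against 47 and 17 in siCtrl (adjusted p = 7.49e-08, exact test). In ZNF561 an 83-nt coding exon had a ψ of 0.70 in siSNRPB2 and 0.98 in siCtrl, with 16 skipping reads in siSNRPB2 and 0 in siCtrl, but 58.8% of its 50-base stretches also occur in transcripts of other genes. Reads of such an exon cannot be assigned with certainty.

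The 4 calls that follow were large in ψ but had no skipping read in either file. They were ZNF397 (494 nt; ψ 0.41 in siSNRPB2 and 0.97 in siCtrl), whose exon encodes the SCAN domain, a dimerisation module, ZNF346 (145 nt; 0.43 and 0.86), which encodes a binder of double-stranded RNA, ZNF142 (197 nt; 0.52 and 0.91) and ZNF721 (127 nt; 0.64 and 0.96). Their read shares were equal in both files by construction. Forms of the ZNF142 exon with 1 boundary in common were not called, at 176 nt (0.95 in siSNRPB2 and 0.99 in siCtrl, on more reads) and 101 nt (0.83 and 0.97). Over all events of the ZNF346 exon the median difference was -0.20, against -0.43 for the event used.

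Outside the depth rule, and named after its values were seen, a 106-nt coding exon of ZNF268 had the lowest difference of all ZNF exons. Its ψ was 0.01 (0.00 to 0.05) in siSNRPB2 and 0.78 (0.68 to 0.87) in siCtrl. It had 0 reads with and 32 without the exon in siSNRPB2, against 89 with and 10 without it in siCtrl (adjusted p = 1.99e-19, exact test). A protein-coding gene of an overlapping locus, AC026786.1, is annotated at the same boundary, so the reads may come from either. Of its other exons, the 208-nt exon had a ψ of 0.98 in both files and the 96-nt B box exon 0.72 in siSNRPB2 and 0.53 in siCtrl, not called.

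Exons with low inclusion were lower too. An exon of ZNF776 of 175 nt, annotated in a non-coding transcript, had 0 reads with and 157 without the exon in siSNRPB2, against 21 with and 45 without it in siCtrl, and a ψ of 0.00 and 0.17 (adjusted p = 4.91e-11, exact test). An exon of ZNF668 of 114 nt had 3 and 67 reads in siSNRPB2, against 24 and 50 in siCtrl, and a ψ of 0.03 and 0.23. In both genes the skipped form was the major one in either file.

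The largest positive difference among the deeper exons was in ZNF496, whose mouse counterpart binds the histone methyltransferase NSD1. Its 108-nt coding exon had a ψ of 0.89 (0.72 to 0.98) in siSNRPB2 and 0.30 (0.22 to 0.39) in siCtrl. It had 49 reads with and 1 without the exon in siSNRPB2, against 40 with and 37 without it in siCtrl (adjusted p = 7.64e-08, exact test). Skipping reads were thus nearly absent in siSNRPB2. The largest positive difference of all ZNF exons was in ZNF618, which encodes a partner of the hydroxymethylcytosine reader UHRF2, named after its values were seen. Its 96-nt exon, shown above, had 44 reads with and 0 without the exon in siSNRPB2, against 8 with and 44 without it in siCtrl, with a ψ of 0.87 (0.66 to 0.99) and 0.06 (0.03 to 0.11) (adjusted p = 7.55e-17, exact test).

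A further 4 of the higher calls had skipping reads in siCtrl and 0 in siSNRPB2. They were an exon of ZNF654 of 136 nt (ψ 0.97 in siSNRPB2 and 0.65 in siCtrl, 14 skipping reads in siCtrl), one of ZNF317 of 242 nt (0.67 and 0.35, 12 reads), one of ZNF426 of 92 nt (0.97 and 0.80, 11 reads) and one of ZNF600 of 475 nt (0.74 and 0.37, 46 reads). Over all events of the ZNF600 exon the median difference was 0.18, against 0.37 for the event used. In ZNF717 a finger-coding exon of 1889 nt had a ψ of 0.93 in siSNRPB2 and 0.64 in siCtrl, with 0 and 7 skipping reads (adjusted p = 0.0817, exact test).

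The remaining higher calls of this rank had no skipping read in either file. They were ZNF131, a BTB domain transcription factor (683 nt; ψ 0.98 in siSNRPB2 and 0.74 in siCtrl), ZNF41 (351 nt; 0.89 and 0.51), ZNF532 (177 nt; 0.86 and 0.47), ZNF655 (151 nt; 0.95 and 0.56), ZNF530 (2142 nt; 0.81 and 0.39) and ZNF587 (130 nt; 0.98 and 0.55). For ZNF41 the median difference over all events of the exon was only 0.04, against 0.38 for the event used. Every 50-base stretch of the 127-nt form of the ZNF587 exon also occurs in transcripts of another gene, ZNF417 among them. The ZNF131 exon was among the deepest, with 2010 inclusion-only reads in siSNRPB2 and 1922 in siCtrl.

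**Figure D3:**
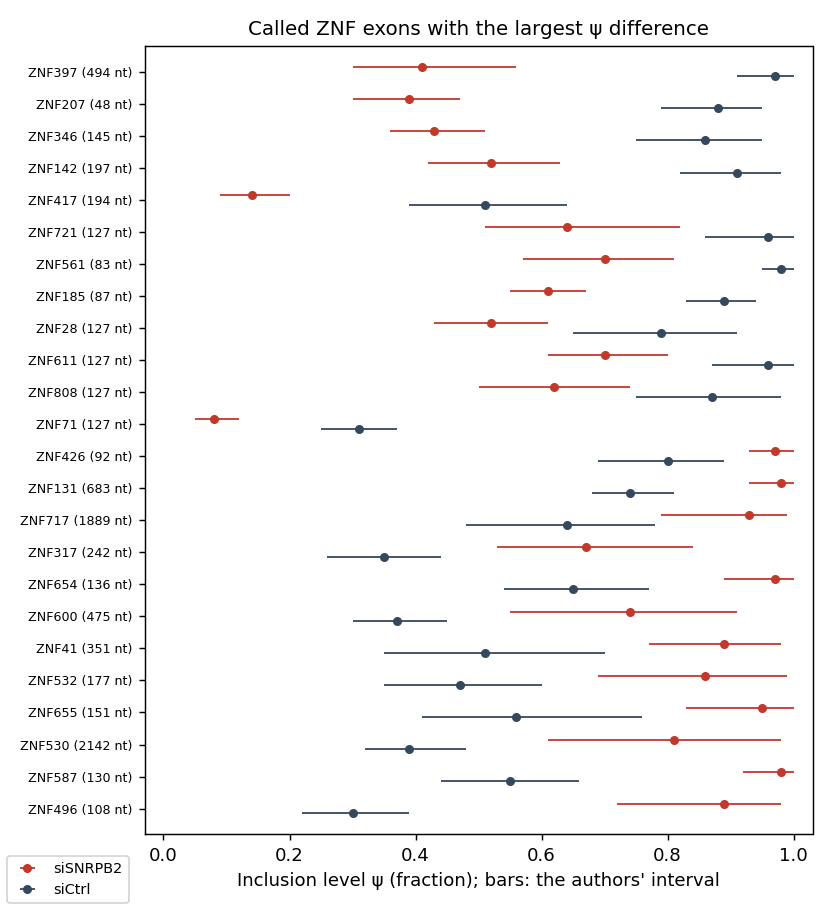
Inclusion level ψ (fraction) in siSNRPB2 and siCtrl of the 12 exons with the largest difference in each direction, 1 per gene, with informative reads of 50 or more in each file; bars are the authors' intervals. The upper 12, from ZNF397 to ZNF71, are lower in siSNRPB2, and the others, down to ZNF496, are higher.

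The higher calls with the most skipping reads had a ψ near 0 in siCtrl. The 75-nt coding exon of ZNF346 had 23 reads with and 54 without the exon in siSNRPB2, against 0 with and 97 without it in siCtrl, and a ψ of 0.16 and 0.01 (adjusted p = 3.38e-08, exact test). Untranslated exons of ZNF160 (141 nt; ψ 0.17 in siSNRPB2 and 0.03 in siCtrl) and ZNF708 (124 nt; 0.21 and 0.02) did likewise. In ZNF346 this exon was called higher and the 145-nt exon lower. Calls in both directions within a gene were also found in ZNF530, ZNF611 and ZNF721.

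The KRAB A exons were followed as a group, since leaving one out removes the TRIM28-binding box. Of all 55 exons with a KRAB A match 7 were called lower and 8 higher in siSNRPB2 (27.3%, against 14.7% of all tested exons). The 3 calls at other lengths, all higher, were in ZNF584, ZNF587 and ZNF655. Those of ZNF584 (151 nt) and ZNF587 (130 nt) contain the called 127-nt exons of these genes and share reads with them. They do not count as further changes. Of the 47 exons of 127 nt, 7 were called lower and 5 higher (25.5%), and the ψ difference was negative for 24, positive for 18 and 0 for 5. Median inclusion was 0.84 in siSNRPB2 and 0.94 in siCtrl, and the median difference was -0.01. In 14 of the exons ψ reached 0.95 or more in both files, among them ZNF274, which recruits SETDB1 to the 3' ends of other zinc finger genes (0.98 and 0.99), and ZNF93, a repressor of LINE-1 elements (0.99 and 0.99), 37.2% of whose stretches recur in other genes. Of all 52 ZNF exons of this length 26.9% were called, against 16.9% of all 142 tested exons of 127 nt, in which they are included, and 11.1% of the 90 in other genes. Those 90 had more informative reads (median 130 in siSNRPB2 and 137.5 in siCtrl, against 86 and 74.5 for the ZNF exons).

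Of the 12 called KRAB A exons of 127 nt, 8 had skipping reads, 5 lower and 3 higher. ZNF71 gave the deepest set of these, with 11 reads with and 111 without the exon in siSNRPB2, against 67 with and 133 without it in siCtrl, and a ψ of 0.08 (0.05 to 0.12) and 0.31 (0.25 to 0.37) (adjusted p = 5.18e-06, exact test). ZNF28 had 95 and 36 reads in siSNRPB2, against 80 and 2 in siCtrl, and a ψ of 0.52 and 0.79. ZNF611 (0.70 in siSNRPB2 and 0.96 in siCtrl), ZNF808 (0.62 and 0.87) and ZNF586 (0.60 and 0.97) were lower as well, with 13, 10 and 3 skipping reads in siSNRPB2, against 0, 1 and 0 in siCtrl. For ZNF28 the median difference over all events of the exon was -0.13, against -0.27 for the event used. A 118-nt exon of ZNF28 had the same 36 skipping reads in siSNRPB2 and 2 in siCtrl, but a ψ of 0.39 in both files. These skipping reads are thus not particular to the KRAB A exon.

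The opposite direction was seen in ZNF470, where ψ was 0.93 (0.80 to 0.98) in siSNRPB2 and 0.28 (0.19 to 0.41) in siCtrl. It had 38 reads with and 0 without the exon in siSNRPB2, against 29 with and 21 without it in siCtrl (adjusted p = 2.02e-05, exact test). ZNF519 had 38 and 0 reads in siSNRPB2, against 41 and 15 in siCtrl, and a ψ of 0.96 and 0.64. ZNF584, like ZNF274 and ZNF93 named after its values were seen, had 88 and 31 reads in siSNRPB2, against 15 and 21 in siCtrl, and a ψ of 0.41 and 0.09. The called exons of ZNF112 (0.96 in siSNRPB2 and 0.27 in siCtrl), ZNF587 (0.82 and 0.41), ZNF778 (0.49 and 0.97) and ZNF721 had no skipping read.

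**Figure D4:**
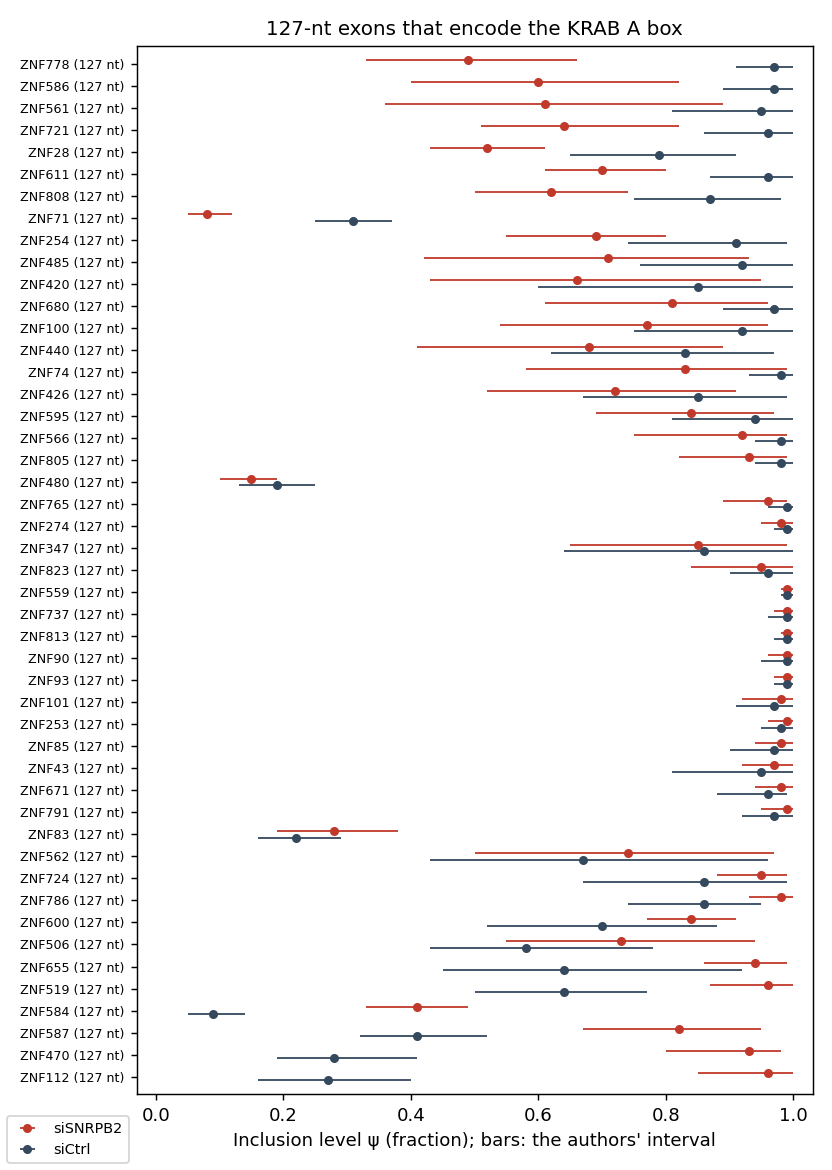
Inclusion level ψ (fraction) in siSNRPB2 and siCtrl of the 47 exons of 127 nt that encode a match to the KRAB A signature, ordered by the difference; bars are the authors' intervals. ZNF778 at the top is lower in siSNRPB2 (0.49 against 0.97), ZNF112 at the bottom is higher (0.96 against 0.27), and the middle of the list stays near 1 in both files.

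Paralogs share sequence in these exons. Of the 47, 27 share at least one 50-base stretch with annotated transcripts of another gene, as do 75 of the 396 ZNF exons with a sequence. Among the called ones the shared portion was 100% for ZNF587, 91.0% for ZNF721, 39.7% for ZNF28, 38.5% for ZNF808, 17.9% for ZNF611, 12.8% for ZNF519 and 5.13% for ZNF112. It was 0 for ZNF71, ZNF470, ZNF584, ZNF586 and ZNF778. Over all ZNF exons without any shared stretch, 30 of 321 were called lower and 35 higher (20.2%, against 14.7% of all tested exons). Reads of paralogs with lesser differences could still be mixed, and the sources used here do not say how multiply aligned reads were treated.

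The kinds of exon are read against the 14.7% of all tested exons called (7.61% lower and 7.13% higher). Of the 209 exons wholly in coding sequence 22 were called lower and 22 higher (21.1%). Of the 67 in 5' untranslated regions 5 were lower and 4 higher (13.4%), near the background. Exons that encode a match to the C2H2 finger signature had 2 lower and 4 higher of 31 (19.4%). Among the 19 exons with a B box match 0 were lower and 1 was higher (5.26%), in ZNF317 (96 nt; ψ 0.98 in siSNRPB2 and 0.85 in siCtrl). Exons placed by a coding transcript of another type than protein_coding, such as nonsense-mediated decay, had 10 lower and 5 higher of 42. In ZNF83, named after its values were seen, 4 overlapping exons of coding and decay types were called lower. All 4 rest on the same 14 reads with and 15 without the exon in siSNRPB2, against 87 with and 6 without it in siCtrl, and count as 1 change.

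By position, 192 of the 401 exons lie on chromosome 19, and 22.9% of these were called, against 20.6% of the 209 elsewhere and 12.7% of 969 exons of other genes on chromosome 19. Median informative reads in siSNRPB2 and siCtrl were 99 and 105 for the ZNF exons elsewhere. They were 172 and 212 for exons of other genes on chromosome 19, against 63.5 and 63 for its ZNF exons. The part of depth was not tested. Between 52 and 54 Mb of that chromosome (hg38), a window chosen after the values were seen, 49 exons of 21 genes were tested. Of these 11 were called lower and 4 higher, against 7.61% lower and 7.13% higher of all tested exons. The lower ones were in ZNF808, ZNF83, ZNF611, ZNF28, ZNF468 and ZNF331, and the higher ones in ZNF528, ZNF611, ZNF600 and ZNF160. The lower ones include overlapping exons of ZNF83 and overlapping exons of ZNF468 (236 and 255 nt), so they hold fewer separate changes than calls. Several of the calls rest on shared reads.

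The best covered ZNF exons had equal ψ in both files, apart from that of ZNF131. Besides the 198-nt exon of ZNF185, these were an exon of ZNF106 of 2184 nt, with a ψ of 1 in both files, and an exon of ZNF638, which encodes a nucleic acid binding protein that recruits the HUSH silencing complex, of 1225 nt with a ψ of 0.99 in both. The ZNF384 exon of 183 nt shows how ψ and junction reads can part. It was called lower (ψ 0.28 in siSNRPB2 and 0.43 in siCtrl), yet 171 reads with and 26 without the exon in siSNRPB2, against 297 with and 41 without it in siCtrl, gave shares of 0.87 and 0.88 (adjusted p = 1, exact test). It was named after its values were seen.

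The exact test on reads sets 1 file against the other and says nothing of conditions. Counting adjusted p under 0.05 together with a difference in read share of 0.1 or more, 32 ZNF exons were lower and 26 higher (14.5%), against 10.6% of all tested exons. Of the 87 called ZNF exons, 51 passed it in the same direction, 27 lower and 24 higher. Among 4582 exons of all genes with near-complete inclusion, inclusion-only reads were set against reads that fit both isoforms. Chi-square between the files had a median of 9.94 times that expected of independent reads. Differences between the groups and noise cannot be told apart in that value. The exact test uses inclusion-only and exclusion-only reads, and whether the same factor holds for these was not tested. With reads divided by that factor, 0 ZNF exons passed the exact test (2 had an unadjusted p under 0.05), against 0.0214% of all exons. With simulated reads divided in this way, 9% of exons made lower by 0.3 were found, and 0% of exons made higher by 0.15.

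Reads that fit an isoform at the deepest event of each gene served as a proxy of gene level. They were scaled to their sum over all genes in the file. In bulk RNA, fewer cells and less RNA per cell cannot be told apart. Among 296 ZNF genes with at least 20 reads on average, the median log2 ratio of siSNRPB2 over siCtrl was 0.12 (180 above 0 and 116 below), against 0.01 over 9530 protein-coding genes. Among the 218 with at least 100 reads it was 0.12 as well, with 62.8% above 0, against 49.9% of 7636 genes and a median of -0.00. The 50 genes with a tested KRAB A exon had a median of 0.17. Single genes had an SD of the log2 ratio of 0.44 among ZNF genes and 0.43 among all genes with at least 100 reads.

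Few ZNF genes moved far. A log2 ratio of at least 1 was reached by 20 of the 296 (6.76%), against 6.45% of all genes, and one of -1 or less by 11 (3.72%), against 4.68%. With at least 100 reads, 6 of 218 were at 1 or more, against 1.65% of all genes, and 4 at -1 or less, against 1.78%. The 6 were ZNF43 with 160 reads in siSNRPB2 and 55 in siCtrl (log2 ratio 1.70, exact 95% interval 1.27 to 2.19), ZNF510 (1.44), ZNF610 (1.42), ZNF251 (1.30), ZNF841 (1.13) and ZNF786 (1.08). The lowest were ZNF236 with 66 reads in siSNRPB2 and 199 in siCtrl (-1.40, -1.84 to -1.01), ZNF248 (-1.39), ZNF440 (-1.16), ZNF805 (-1.01), ZNF221 (-0.93) and ZNF653 (-0.81). These intervals cover counting error only, and all these genes had few reads.

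Genes with called exons had read ratios on both sides of 0. ZNF71, with less of its KRAB A exon in siSNRPB2, had a log2 ratio of 0.41 (0.29 to 0.52). ZNF519, with more of it, was at 0.96 (0.72 to 1.21), whereas ZNF470, also with more, was at -1.07 (-1.63 to -0.56) on 43 and 103 reads. ZNF207 (0.03) and ZNF185 (0.02) were near 0, and ZNF618 (-0.52) and ZNF496 (-0.54) were below it. For ZNF71, ZNF470 and ZNF496 the gene reads are those of the called exon's own event. Their ratios are therefore not a separate readout from ψ.

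**Figure D5:**
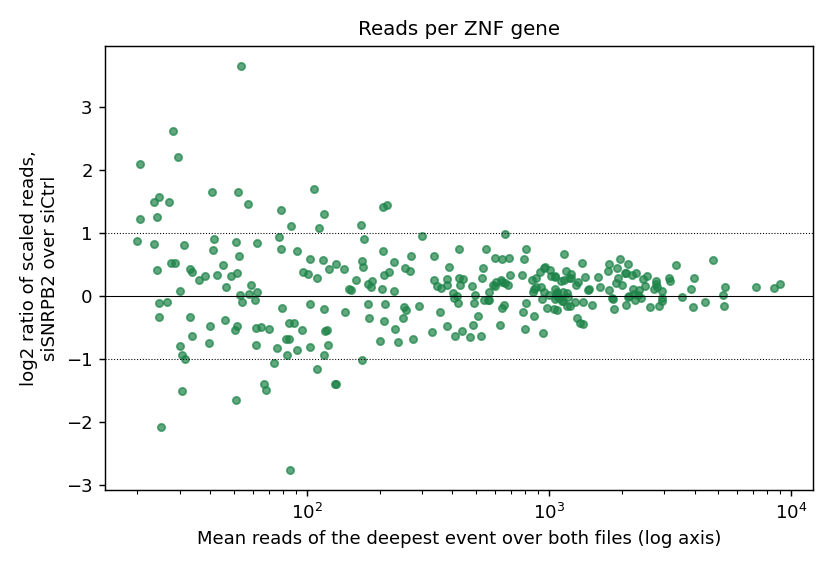
Log2 ratio of scaled reads (siSNRPB2 over siCtrl) of 296 ZNF genes against the mean reads of their deepest event over both files (log axis); dotted lines mark -1 and 1. Every ratio beyond these lines belongs to a gene with a mean of at most 215 reads, and 180 of the 296 genes lie above 0.

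The partners of KRAB proteins were taken from a list of the TRIM28 pathway with 39 symbols, of which 27 had tested exons. Of their 68 exons, 7 were called lower and 0 higher in siSNRPB2 (10.3%, against 14.7% of all tested exons). The HUSH complex, which spreads H3K9 methylation over repeats, held the best supported one. A 57-nt exon of its subunit PPHLN1 had 219 reads with and 55 without the exon in siSNRPB2, against 335 with and 6 without it in siCtrl, and a ψ of 0.48 and 0.85 (adjusted p = 7.93e-13, exact test). In its subunit FAM208A (TASOR) exons of 179 nt (0.39 in siSNRPB2 and 0.85 in siCtrl) and 106 nt (0.38 and 0.83) were called with no skipping read. The other calls were in TRIM33, a TRIM28 relative (51 nt, 0.29 in siSNRPB2 and 0.51 in siCtrl), and HDAC1, a histone deacetylase (113 nt, 0.67 and 0.95). In the NuRD complex MTA1 (51 nt, 0.74 and 0.97) and CHD3 (153 nt, 0.87 and 0.99) were called. HDAC1, MTA1 and CHD3 had 2, 4 and 4 skipping reads in siSNRPB2, against 0 in siCtrl (adjusted p = 0.595, 0.0808 and 0.101, exact test). A 164-nt form of the CHD3 exon was not called (0.91 in siSNRPB2 and 0.99 in siCtrl).

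Reads of 28 genes of that list had a median log2 ratio of 0.07. CBX1, which encodes HP1 beta, stood highest among those with many reads, at 1.06 (0.98 to 1.15) on 3439 reads in siSNRPB2 and 1859 in siCtrl, while DNMT1 was at 0.01 and SETDB1 at -0.17 (all 3 named after their values were seen). Zinc finger genes under other symbols were called in both directions too. Of 18 ZBTB exons 4 were lower and 0 higher, of 14 ZSCAN exons 1 and 3, of 4 ZFP exons 0 and 2, and of 2 ZKSCAN exons 0 and 0. Together 26.3% of these 38 exons were called, against 21.7% of ZNF exons and 14.7% of all tested exons. These calls include ZSCAN9 exons of 153 and 87 nt with the same 29 skipping reads in siSNRPB2 and 15 in siCtrl. They also include ZBTB17 exons of 207 and 203 nt, with no skipping read in either file. Such calls may repeat the same change.

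Reads that fit neither isoform, such as intronic ones, made up 51.9% of event reads of the tested ZNF exons in siSNRPB2 and 50.7% in siCtrl. Over all tested events it was 52.2% in siSNRPB2 and 50.3% in siCtrl. The difference of 1.25 percentage points in ZNF events was below the 1.86 over all events. The introns before the ZNF exons had a median length of 2102 nt and those after them 2906 nt, against 2189.5 and 2038 nt for all tested exons.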

How the data were processed

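Skipped-exon events were measured by RNA sequencing in 4 libraries, 2 per group. The submitters' processing notes name STAR 2.7 and hg38. The authors' deposited files give MISO ψ as a fraction, its interval, and read numbers per class of compatibility, per the file headers. Interval bounds are on the same scale. The authors' deposited comparison gives the ψ difference (siSNRPB2 minus siCtrl), a score from -1 to 1, and the Bayes factor, a ratio that reaches at most 1e+12. Not given in the sources used here: MISO's version, event annotation, interval level and merging of libraries. No replicate value was available, so precision rests on reads.

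One event per exon was kept, that with the most informative reads. Classes came from GENCODE release 29, and coding exons were translated in frame to search signatures of the KRAB A and B boxes, SCAN and C2H2 fingers. Classes of the type protein_coding took precedence within each kind of placement. Shared stretches are exact 50-base matches in transcripts of non-overlapping genes. Gene reads used a pseudocount of 1, and exact 95% intervals cover counting error only. The noise factor came from exons without exclusion-only reads whose ψ reached 0.95 in each file. It compares inclusion-only reads with reads that fit both isoforms. The exact read test was checked on simulated data for the 18682 tested exons (200 changed). It found 59% of exons made lower by 0.3 and 12% of exons made higher by 0.15, with 0 false calls, when reads were independent. The changed exons were drawn from exons of all genes with intermediate read shares. Exons without a skipping read could not give a false call. The rates therefore do not describe the shallower ZNF exons.

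Members, lists and thresholds were chosen with earlier results of these data known. The naming rule took called exons with informative reads of 50 or more in each file (12 per direction, 1 per gene), the 4 deepest, the 3 per direction with the most skipping reads, the exons at the read minimum, called exons of the TRIM28 list, and the 6 highest and lowest genes with at least 100 reads. No protein table was used here. Software: matplotlib 3.10.9, scipy 1.17.1, pandas 2.3.3 and numpy 2.4.6 under Python 3.11.15.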

Additional observations from a re-analysis of the deposited data

How the results depend on the processing

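No paired analysis was possible because the files hold 1 value per group and no library of its own, and for the same reason no library could be left out. The count of 87 called ZNF exons stayed between 58 and 122 under 12 of 13 alternatives of threshold, event, annotation and test. The 122, at a Bayes factor of at least 1, were 30.4% of the ZNF exons, against 20.9% of all exons. The 58, by the exact test on reads, were 14.5%, against 10.6%. Raising the read minimum to 50 gave 39 of 233 exons (16.7%, against 13.2% of all exons), by construction over fewer exons. Chosen after seeing the data, 1 exon per group of overlapping exons left 70 calls among 339 exons. Leaving out exons shared with another annotated gene left 81 among 357. The share of all tested exons was not taken under these rules. The 58 exons past the read test became 0 with reads divided by the noise factor, and the cause of the noise was not tested. The median log2 ratio of ZNF genes lay between 0.11 and 0.14 over 5 alternatives of scaling, pseudocount and minimum. The 7 calls of the TRIM28 list became 6 in both alternatives. Of 29 named exons no difference changed sign. The share of inclusion-only reads moved 20 of them beyond counting error, 10 of these to 0 by construction, since they have no skipping read. The median over events moved 4. The median depth of 79 informative reads in siSNRPB2 and 83 in siCtrl limits precision, with a median ψ interval of 0.12 in both files.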
